A study of Homo sapiens with 4 samples.

Results

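Bone morphogenetic proteins (BMPs) are secreted growth factors of the TGF-β family, and anti-Müllerian hormone (AMH) is a more distant relative in the same family. The members described here were taken by gene symbol and not by any measured value, though earlier results of these data were known by then. They are BMP2, BMP4, BMP5, BMP6, BMP7, BMP8A, BMP8B and AMH, 8 of the 2864 genes with values in the table analysed here. That table is an alphabetical stretch of the gene list, so genes with later names, such as the SMAD and ID genes, were not analysed here.

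RNA was sequenced from A375 cells, a human melanoma line labelled as wild type, in 4 libraries with a single library per condition. The paper places its work in BRAF-mutated melanoma, so that label should not be read as an unmutated BRAF gene. A375P was the untreated parental line. A375R was the vemurafenib-resistant strain, which was raised by stepwise exposure and kept under graded vemurafenib, and its concentration at harvest is not stated in the labels. A375+DMSO was the parental line after 48 h with the solvent at 1‰, and A375+VEM was that line after 48 h with 2 μM vemurafenib, an inhibitor of the BRAF kinase. All 4 libraries carry the same batch label. The resistant strain is a single derivation from a single line, and the labels do not say whether it was cloned.

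BMPs act as dimers that bring together type I and type II serine/threonine kinase receptors. The type I receptors then phosphorylate SMAD1, SMAD5 and SMAD9, which switch on targets such as the ID genes. BMP2 and BMP4 form one close subgroup of ligands, and BMP5, BMP6, BMP7, BMP8A and BMP8B form another. AMH signals through its own type II receptor, AMHR2, and is best known for the regression of the Müllerian ducts in male embryos. BMP signals pattern the neural crest, the embryonic source of pigment cells.

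Levels are given as reads and as TPM, which divides the count by gene length and scales it to the library, so that TPM can be compared between genes. A ratio was called past the threshold when (TPM + 0.1) differed by more than 1.5-fold, the fold criterion of the study, and only where either library had the gene at a TPM of 1 or more. Log2 ratios are on that scale, so that changes of low genes come out too small, whereas ratios not given as log2 are plain ratios of TPM. The 95% intervals are exact, from the reads alone, and they cover counting error only. With 1 library per condition no spread between replicates is known, so the libraries were compared and the conditions were not tested. Fewer cells making a transcript and less transcript per cell cannot be told apart in such bulk RNA.

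The sums of counts over the genes in the table lay between 1891215 and 2054277 per library, which covers only some genes and is no measure of depth. Of 15 pigment cell and melanoma markers listed, 7 are in the table, with 4 to 6 of them at a TPM of 1 or more in each library, while MITF, SOX10, PMEL and MLANA were not analysed here. None of 7 immune markers reached a TPM of 1 in any library, and their summed TPM lay between 0.346 and 1.23. The endothelial marker ANGPT2 stayed at or below a TPM of 0.263, and the fat cell marker ADIPOQ at or below 0.0252. The only fibroblast marker at hand, the smooth muscle actin gene ACTA2, was at a TPM of 92.2 in A375P and 34.97 in A375R, and 28.3 in A375+DMSO against 40.1 in A375+VEM. No keratinocyte marker of the list was analysed here.

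The summed TPM of the 8 genes was 85.1 in A375P and 116 in A375R, and 53.8 in A375+DMSO against 36.7 in A375+VEM. The resistant strain therefore had the highest sum and the acutely treated cells the lowest, with the solvent control below the untreated parental line. BMP2 alone made up 37.2% of the sum in A375P and 66.3% in A375R, but 26.5% in A375+DMSO and 23.7% in A375+VEM. Without BMP2 the sums were 53.5 in A375P and 39.2 in A375R, and 39.5 in A375+DMSO against 28.0 in A375+VEM, so A375R no longer stood highest. These sums still hold AMH, the more distant relative, at 25.3 in A375P and 6.27 in A375R, and 8.23 in A375+DMSO against 9.58 in A375+VEM. The order of A375P and A375R without BMP2 is therefore not one of the BMPs alone. The most abundant ligand transcript was BMP2 in A375P and A375R, and BMP8B in A375+DMSO and A375+VEM. AMH came next after BMP2 in A375P, with 29.7% of the sum, and behind BMP2, BMP8B and BMP6 in A375R, with 5.41%.

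**Figure D1:**
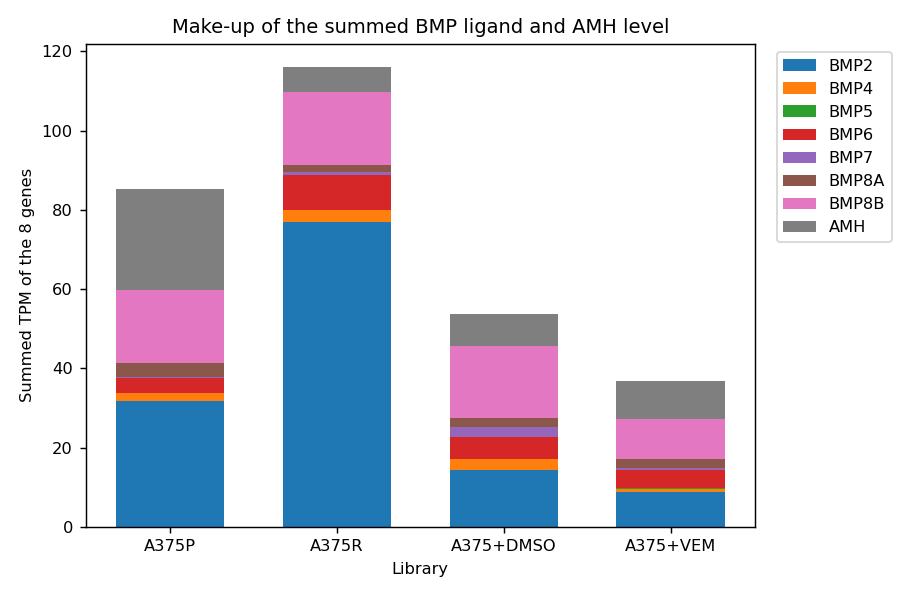
Bars show the summed TPM of the 8 genes in each of the 4 libraries, split by gene, on a linear axis from 0. BMP2 takes 66.3% of the A375R bar and 23.7% of the A375+VEM bar, and the grey AMH segment is tallest in A375P, at a TPM of 25.3.

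BMP2, a bone-inducing ligand that signals mainly through BMPR1A, maps to the plus strand of chromosome 20, between 6748745 and 6760927. Coordinates of genes are those of the deposited table, and the submitters' processing notes name the build hg19. BMP2 had 859 reads in A375P and 1885 in A375R, and 361 in A375+DMSO against 219 in A375+VEM. These correspond to a TPM of 31.6, 76.9, 14.3 and 8.71 in the same order. All neighbours in that ranking, A375R over A375P over A375+DMSO over A375+VEM, were apart by more than counting error. The step from A375+VEM up to A375+DMSO was the smallest, at 1.64-fold with an interval from 1.38 to 1.95. A375R was 8.83-fold above A375+VEM (95% interval 7.67 to 10.2), the other library labelled as treated with vemurafenib. Among 1702 genes compared between A375R and A375+DMSO, BMP2 had the 11th largest log2 ratio, at 2.42, whereas against A375P it was 169th of 1689.

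BMP4, the closest relative of BMP2 and a ligand of early embryonic patterning, maps to the minus strand of chromosome 14, between 54416454 and 54423609. The longest open reading frames of BMP2 and BMP4 were identical at 63.5% of aligned positions. BMP4 had 45 reads in A375P and 59 in A375R, and 57 in A375+DMSO against 17 in A375+VEM, or a TPM of 2.04, 2.96, 2.77 and 0.831. A375R, A375+DMSO and A375P could not be ranked beyond counting error, and A375+VEM stood below all of them. Its ratio was 0.300 to A375+DMSO (95% interval 0.164 to 0.524) and 0.408 to A375P (95% interval 0.219 to 0.726). The lower BMP4 level was thus seen against either library without vemurafenib, with only 17 reads behind the value in A375+VEM. At this depth no difference of A375R from A375+DMSO was detectable, at a ratio of 1.07 (95% interval 0.730 to 1.57).

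**Figure D2:**
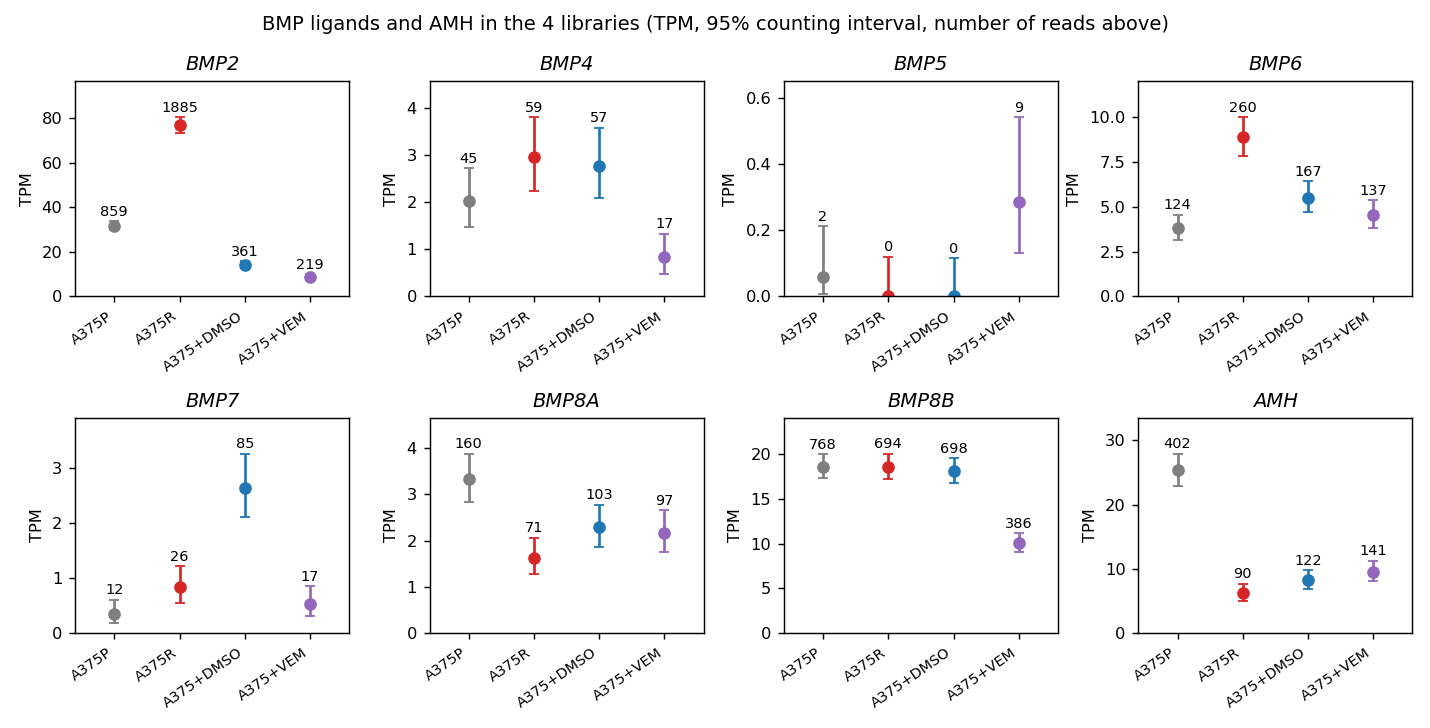
Each panel shows 1 gene, with the TPM of the 4 libraries on a linear axis from 0, the exact 95% counting interval as a bar and the number of reads above it. BMP2 and BMP6 are highest in A375R, BMP8A and AMH in A375P, and BMP7 in A375+DMSO, while BMP4 and BMP8B are lowest in A375+VEM.

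BMP5 and BMP6 are close relatives that lie on chromosome 6. BMP5, from 55618451 to 55740388 on the minus strand, was barely detected, with 2 reads in A375P and none in A375R, and none in A375+DMSO against 9 in A375+VEM. A count of 0 allows a TPM of up to 0.0976 in A375R and 0.0945 in A375+DMSO, taking 3 reads as the limit. The TPM in A375+VEM was 0.285, at least 3.02-fold above A375+DMSO at that limit, and the exact 95% interval of the ratio, which also counts the error of the 9 reads, began at 1.99. BMP5 stayed below a TPM of 1 in all 4 libraries and was left out of the counts of members past the threshold.

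BMP6, a ligand that controls the iron hormone hepcidin in the liver, spans 7726332 to 7881961 on the plus strand. Its reads numbered 124 in A375P and 260 in A375R, and 167 in A375+DMSO against 137 in A375+VEM, or a TPM of 3.82, 8.88, 5.52 and 4.56. A375R was the highest library and stood apart from the next one, A375+DMSO, by 1.61-fold (95% interval 1.32 to 1.97). The neighbouring steps among A375+DMSO, A375+VEM and A375P were within counting error, at 1.21-fold (0.960 to 1.53) and 1.19-fold (0.928 to 1.53), although A375+DMSO itself was above A375P at 1.44-fold (1.14 to 1.84). Against A375+VEM the ratio in A375R was 1.95 (1.58 to 2.41). The gene overlaps BLOC1S5-TXNDC5 on the other strand, which had 3293, 2080, 2762 and 2728 reads in A375P, A375R, A375+DMSO and A375+VEM. That gene was lowest in A375R, where BMP6 was highest, and whether reads were counted by strand is not given in the sources used here. RefSeq also lists TXNDC5 as overlapping BMP6, and the reads of TXNDC5 were not analysed here.

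The 250 bases upstream of the start sites of BMP5 and BMP6 are shown because one of these relatives was barely detected and the other was present in every library. They are RefSeq sequences of build GRCh38.p14, at chr6:55875591-55875840 on the minus strand for BMP5 and chr6:7725849-7726098 on the plus strand for BMP6, 5′ to 3′, with CCAAT and GGGCGG on either strand in capitals.
BMP5: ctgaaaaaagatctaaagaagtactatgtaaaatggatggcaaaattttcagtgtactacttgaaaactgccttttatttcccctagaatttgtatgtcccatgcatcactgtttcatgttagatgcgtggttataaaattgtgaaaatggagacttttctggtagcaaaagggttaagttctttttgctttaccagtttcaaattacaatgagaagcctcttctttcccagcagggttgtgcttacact
BMP6: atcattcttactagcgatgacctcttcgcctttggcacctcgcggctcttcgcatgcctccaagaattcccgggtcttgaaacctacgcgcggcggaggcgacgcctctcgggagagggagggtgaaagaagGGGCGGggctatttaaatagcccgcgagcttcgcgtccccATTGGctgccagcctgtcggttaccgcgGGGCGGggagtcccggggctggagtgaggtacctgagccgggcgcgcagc
The BMP5 window held 35.6% G and C and neither motif, and 6.22% of 34943 RefSeq windows of that length had a lower G and C content. The BMP6 window held 64.4% G and C, with CCAAT once and GGGCGG at 2 places. Of all windows, 32.04% held CCAAT and 42.5% held GGGCGG, so single matches are common and describe letters only.

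BMP7, a ligand of kidney and bone development, maps to the minus strand of chromosome 20, between 55743809 and 55841707. Its reads numbered 12 in A375P and 26 in A375R, and 85 in A375+DMSO against 17 in A375+VEM, or a TPM of 0.347, 0.833, 2.64 and 0.531. A375+DMSO was the only library at a TPM of 1 or more, and it was 3.16-fold above the next one, A375R (95% interval 2.02 to 5.12). Neighbours among the other libraries did not differ beyond counting error, though A375R was above A375P at 2.40-fold (1.17 to 5.22). The acute ratio of A375+VEM to A375+DMSO was 0.201 (0.112 to 0.342). Against A375P the ratio in A375+VEM was 1.53 with an interval from 0.688 to 3.51, so no difference from the untreated parental line was detectable. The overlapping antisense gene BMP7-AS1 had no read in any of the 4 libraries.

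BMP8A and BMP8B are near-identical ligands encoded on chromosome 1, known from studies of germ cells and brown fat. BMP8A spans 39957318 to 39995541 on the plus strand, and BMP8B spans 40222854 to 40254533 on the minus strand. Their longest open reading frames, of 1209 bases each in GENCODE release 29, were identical at 1187 positions, or 98.2%. Of the 50-base words in the BMP8A transcript, 36.8% also occurred in BMP8B, and 44.0% occurred in a transcript of some other gene. For BMP8B that share was 13.4%, while for BMP2, BMP4, BMP5 and BMP6 it was 0%. The words come from GENCODE transcripts, for BMP8A 1643 words beside a counted gene length of 5626 bases. For BMP6 there were 2731 words beside 3784 bases, so the shares over the counted genes may differ. The split of reads between BMP8A and BMP8B is therefore uncertain, and RefSeq also lists PPIE as overlapping BMP8B and PPIEL as overlapping BMP8A.

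The upstream windows of the pair are shown because the transcripts are so alike. They lie at chr1:39491386-39491635 on the plus strand for BMP8A and chr1:39788866-39789115 on the minus strand for BMP8B, in the same RefSeq build and notation as above.
BMP8A: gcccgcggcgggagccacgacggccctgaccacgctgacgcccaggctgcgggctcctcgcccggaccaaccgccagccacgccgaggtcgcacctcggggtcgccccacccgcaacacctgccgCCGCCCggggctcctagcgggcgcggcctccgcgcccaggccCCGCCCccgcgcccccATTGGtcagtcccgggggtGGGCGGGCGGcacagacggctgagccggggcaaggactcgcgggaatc
BMP8B: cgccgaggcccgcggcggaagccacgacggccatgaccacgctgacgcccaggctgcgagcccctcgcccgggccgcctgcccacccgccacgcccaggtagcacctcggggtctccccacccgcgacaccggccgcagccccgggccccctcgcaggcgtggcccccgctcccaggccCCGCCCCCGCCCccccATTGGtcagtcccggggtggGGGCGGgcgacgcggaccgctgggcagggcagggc
An alignment of these windows had 206 identical positions among 263 columns, or 78.3%. Both held CCAAT once, read on the reverse strand, as did the BMP6 window, and GGGCGG at 4 places in BMP8A and 3 in BMP8B, overlapping ones included. Their G and C contents of 79.6% and 81.6% exceeded those of 96.3% and 98.0% of all windows.

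Despite that likeness the counts of the pair differed in level and in pattern. BMP8A had 160 reads in A375P and 71 in A375R, and 103 in A375+DMSO against 97 in A375+VEM, or a TPM of 3.32, 1.63, 2.29 and 2.17. A375P was the highest library, 1.45-fold above A375+DMSO (95% interval 1.12 to 1.88), and the neighbouring steps below it were within counting error. BMP8B had 768, 694, 698 and 386 reads in the same order, or a TPM of 18.6, 18.6, 18.1 and 10.1. A375P, A375R and A375+DMSO were level within counting error, the ratio of A375R to A375P being 1.00 (0.901 to 1.11). A375+VEM stood below them, at a ratio of 0.557 to A375+DMSO (0.491 to 0.632) and 0.542 to A375P (0.479 to 0.614). The TPM of BMP8B was 5.6 times that of BMP8A in A375P (4.72 to 6.68), 11.4 times in A375R (8.92 to 14.8), 7.91 times in A375+DMSO (6.42 to 9.82) and 4.64 times in A375+VEM (3.71 to 5.86). The intervals of A375P and A375R do not overlap, nor does that of A375+VEM overlap those of A375R and A375+DMSO. Summed over the pair, the TPM was 21.9 in A375P and 20.2 in A375R, and 20.4 in A375+DMSO against 12.3 in A375+VEM. That sum does not depend on how reads shared by BMP8A and BMP8B were split, except through the gene lengths. Reads shared with other genes, such as PPIEL with 8.40% of the BMP8A words, could still affect it. The sum was lowest in A375+VEM, as BMP8B was, and its log2 ratio of A375R to A375P was -0.11. With BMP8B at 4.64 to 11.4 times the TPM of BMP8A, the sum mostly follows BMP8B. It therefore cannot decide whether the low BMP8A value in A375R came from the split of reads.

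AMH maps to the plus strand of chromosome 19, between 2249278 and 2252072. Its reads numbered 402 in A375P and 90 in A375R, and 122 in A375+DMSO against 141 in A375+VEM, or a TPM of 25.3, 6.27, 8.23 and 9.58. A375P stood alone, 2.64-fold above the next library, A375+VEM (95% interval 2.18 to 3.22). The neighbouring steps among the other libraries, from A375+VEM to A375+DMSO and from A375+DMSO to A375R, did not differ beyond counting error, at 1.16-fold (0.907 to 1.495) and 1.31-fold (0.991 to 1.74). Across the whole span, A375R was below A375+VEM, at a ratio of 0.655 (0.497 to 0.859). In A375R against A375P, AMH had the 24th lowest log2 ratio of 1689 genes, at -2.00, but in A375R against A375+DMSO it was at -0.39 and 287th lowest of 1702. AMH was thus below A375P also in A375+DMSO, at a ratio of 0.325 (0.263 to 0.399), beside 0.248 in the resistant strain (0.195 to 0.312). ACTA2 was likewise highest in A375P, and its part in this result was not tested. The dedicated receptor AMHR2 had 1 read in A375P and none in A375R, and 2 in A375+DMSO against 1 in A375+VEM, at or under the limit of 3 reads in each library.

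For the resistant strain against its parental line, the question was which genes go with lasting resistance. Of the 8 members, 6 were at a TPM of 1 or more in either library, BMP5 and BMP7 being below it. BMP2 and BMP6 were past 1.5-fold higher in A375R, where 26.8% of 1689 genes were, and BMP8A and AMH were past it lower, where 17.5% of genes were. BMP4 and BMP8B were within the threshold. The median log2 ratio of the 6 was 0.26, against 0.10 over all genes compared. With A375+DMSO as the reference, BMP2 and BMP6 were again higher in A375R among 7 members compared, against 10.5% of genes, and BMP7 was lower, against 9.99% of genes. BMP8A and AMH were within 1.5-fold in that comparison, at ratios of 0.712 (95% interval 0.519 to 0.973) and 0.762 (0.574 to 1.01). Both comparisons share the A375R library, so they are not independent of each other.

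For 48 h of vemurafenib against the solvent, which asks about the acute response, 7 members were compared. None was past 1.5-fold higher in A375+VEM, where 26.5% of 1784 genes were, and 4 were past it lower, where 19.7% of genes were. These were BMP7 at a log2 ratio of -2.12, BMP4 at -1.62, BMP8B at -0.84 and BMP2 at -0.70. BMP6 was at -0.27, BMP8A at -0.07 and AMH at 0.22, with the intervals of all these ratios including 1. The median over the 7 was -0.70, against 0.11 over all genes compared. Of 6 pigment cell markers compared in these libraries, 5 were past 1.5-fold higher in A375+VEM, beside 26.5% of genes. Of these, BIRC7 rested on 18 reads against 9, with an interval from 0.859 to 5.09 that includes 1. BACE2 went the other way within 1.5-fold, at a ratio of 0.773 (0.722 to 0.827). The summed TPM of the 7 markers in the table was 83.0 in A375+DMSO, 118 in A375+VEM and 104 in A375P. Against A375P, 4 of 6 markers were past 1.5-fold higher in A375+VEM, beside 36.9% of genes. BACE2 was past it lower there, at 0.444 (0.417 to 0.471), beside 25.3% of genes, and ASAH1 was level, at 1.01 (0.921 to 1.12). The part of the markers in the ligand levels was not tested. Against A375P in place of A375+DMSO, none of 6 members was higher in A375+VEM, against 36.9% of 1782 genes, and 5 were lower, against 25.3% of genes. They were BMP2, AMH, BMP4, BMP8B and BMP8A, at log2 ratios of -1.85, -1.39, -1.20, -0.88 and -0.59. BMP2, BMP4 and BMP8B were past the threshold in both of these comparisons, which share the A375+VEM library.

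**Figure D3:**
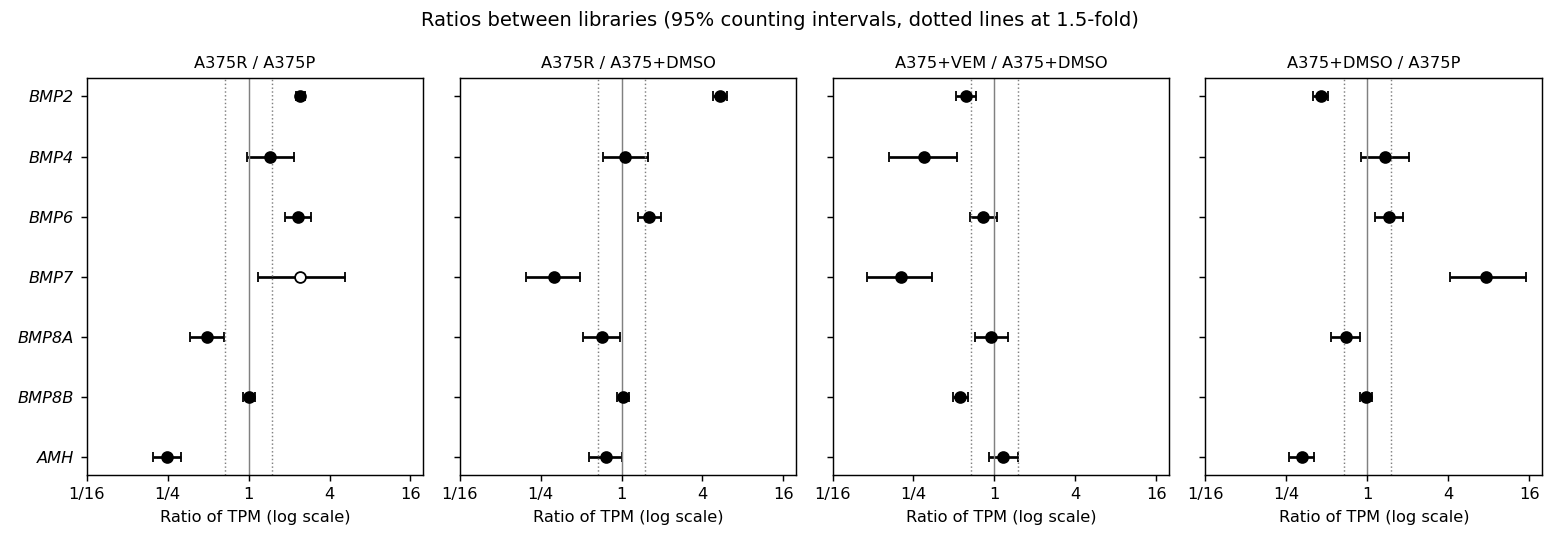
Points are ratios of TPM between libraries on a log axis for each gene except BMP5, with exact 95% counting intervals as bars, and open points mark genes under a TPM of 1 in both libraries. BMP2 is right of 1 in both A375R panels, at 2.43 and 5.39, and left of it in A375+VEM against A375+DMSO, at 0.611, and in A375+DMSO against A375P, at 0.450.

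The libraries without vemurafenib differed from each other as well. In A375+DMSO against A375P, BMP7 was past 1.5-fold higher, where 26.8% of 1720 genes were, and BMP2 and AMH were past it lower, where 18.9% of genes were, among 7 members compared. Scaled to a median ratio of 1, BMP8A, at a log2 ratio of -0.52 as deposited, was also past it. BMP7 was 7.59-fold higher in A375+DMSO (95% interval 4.13 to 15.3), and BMP2 was at a ratio of 0.450 (0.397 to 0.510). The solvent, the time in culture and the handling of these libraries cannot be told apart with 1 library each. The position of A375R above either library held for BMP2 and BMP6, and that of A375+VEM below either held for BMP2, BMP4 and BMP8B.

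Of 10 receptor genes, 8 were abundant enough to compare between A375R and A375P, with 2 past 1.5-fold higher in A375R, beside 26.8% of all genes, and 1 lower, beside 17.5%. These counts were near the shares of all genes and set the receptors apart in neither direction. BMPR1A, the main type I receptor for BMP2 and BMP4, was at a TPM of 18.6 in A375P and 25.8 in A375R, and 25.0 in A375+DMSO against 33.4 in A375+VEM. BMPR2, the type II receptor most used by BMPs, lay between a TPM of 9.68 in A375+DMSO and 13.5 in A375+VEM, within 1.5-fold in every comparison of A375R and A375+VEM with their controls. BMPR1B was at a TPM of 1.32 in A375P and between 0.508 and 0.587 in the other libraries, past 1.5-fold lower in A375R against A375P. ACVR2B, a type II receptor for activins and BMPs, was at a TPM of 6.10 in A375P and 9.79 in A375R, a ratio of 1.60 (95% interval 1.44 to 1.78). ACVRL1, known as an endothelial type I receptor, had no read in A375P and 36 in A375R, and 28 in A375+DMSO against 52 in A375+VEM, so it was at least 13.3-fold higher in A375R than the limit of 3 reads in A375P, and the exact 95% interval of the ratio, which also counts the error of the 36 reads, began at 10.3. In A375R against A375+DMSO none of 7 receptors compared was past 1.5-fold, beside 10.5% of genes higher and 9.99% lower. In A375+VEM against A375+DMSO, ACVRL1 alone of 7 was past it, higher at 1.87-fold (1.16 to 3.08), beside 26.5% of genes higher and 19.7% lower. In A375+VEM against A375P, BMPR1A at 1.79-fold (1.62 to 1.99) and ACVRL1 were higher and BMPR1B was lower among 8, beside 36.9% and 25.3% of genes. In A375+DMSO against A375P none of 7 was higher, beside 26.8% of genes, and ACVR1 and BMPR1B were lower, at ratios of 0.601 (0.532 to 0.679) and 0.432 (0.266 to 0.684), beside 18.9%.

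BAMBI, ATOH8 and BMP1 were highest in A375+VEM. The first of them, a decoy receptor that blocks signaling and is also a target gene, had 201 reads in A375P and 314 in A375R, and 607 in A375+DMSO against 1358 in A375+VEM. Its TPM was 13.6, 23.5, 44.0 and 99.2, so A375+VEM was highest while the BMP2, BMP4 and BMP8B levels were lowest there. The ratio of A375+VEM to A375+DMSO was 2.25 for BAMBI (95% interval 2.05 to 2.48), and that of A375R to A375P was 1.73 (1.44 to 2.07). ATOH8, a transcription factor gene known as a BMP target, had 13 reads in A375P and 9 in A375R, and 284 in A375+DMSO against 898 in A375+VEM, or a TPM of 0.259, 0.198, 6.06 and 19.3. A375R and A375P thus held the lowest ATOH8 levels and the highest BMP2 levels, and A375+VEM was 3.18-fold above A375+DMSO for ATOH8 (2.78 to 3.65). A link between ligand and target levels was not tested. BMP1, which despite its name is a collagen-processing protease and not a ligand, was at a TPM of 13.9, 18.6, 18.8 and 61.7 in A375P, A375R, A375+DMSO and A375+VEM. BMPER, a secreted BMP-binding protein, had 5, 2, 3 and 16 reads in that order. Only 3 of 13 modulators, 2 of 9 target genes, BAMBI being in both lists, and none of 4 SMAD transducers were in the table. Of the other ligands listed, BMP3, BMP10 and BMP15 had at most 2 reads in any library.

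**Figure D4:**
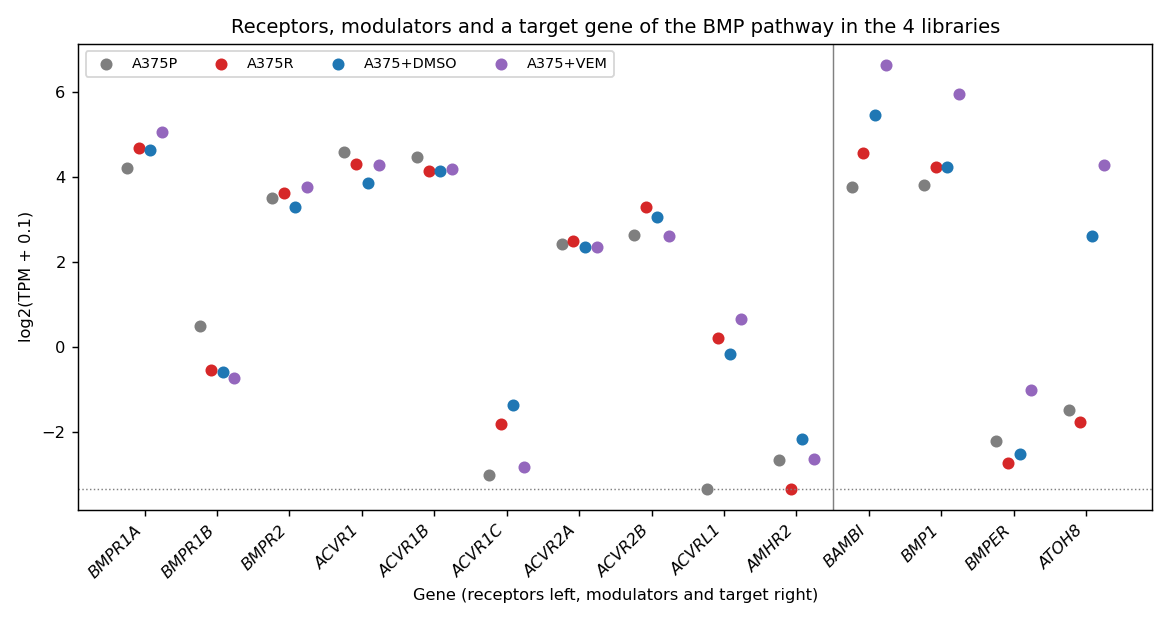
Points give log2(TPM + 0.1) of 10 receptor genes, left of the vertical line, and of BAMBI, BMP1, BMPER and ATOH8, right of it, in the 4 libraries, with the dotted line at a TPM of 0. BMPR2, ACVR1B and ACVR2A are within 1.5-fold across the libraries, while BAMBI, BMP1 and ATOH8 are highest in A375+VEM, at a TPM of 99.2, 61.7 and 19.3.

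The genes most like each member were sought among protein-coding genes by the distance between their log2(TPM + 0.1) values over the 4 libraries, centred on each gene's mean. This is a description over 4 points, among genes whose SD over the libraries was at least 50% of the member's, and it says nothing of common control. Among 561 genes, ARHGAP22 was nearest to BMP2 at a distance of 0.28, followed by BIRC3 of the inhibitor of apoptosis family at 0.30 and C6orf58 at 0.63. BIRC3 had a TPM of 23.4 in A375P and 64.4 in A375R, and 9.08 in A375+DMSO against 6.997 in A375+VEM. The nearest genes to BMP4 were ARHGAP19, at 0.15, ANAPC10, a subunit of the anaphase-promoting complex, at 0.26, and the ribosome assembly factor BRIX1 at 0.26. The 3 genes nearest to BMP6 included APOL6 at 0.13 and ARFGAP3 at 0.18. BMP7 was closest to ANO4 at 0.34, ABI3 at 0.34 and C21orf58 at 0.75. For BMP8A these were AP1S3 at 0.09, C14orf2 at 0.16 and ALG1L at 0.17, and for BMP8B the autophagy enzyme gene ATG3 at 0.03, AADAT at 0.06 and BTF3L4 at 0.10. AMH was closest to ATP6V1B2, a subunit of the vacuolar proton pump, at 0.27, ADRA1B at 0.33 and BAG1 at 0.43. ATP6V1B2 was at a TPM of 140 in A375P and between 41.7 and 52.7 in the other libraries.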

How the data were processed

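RNA-seq libraries came from 4 cultures of A375 cells, grouped by their GEO labels. The authors deposited 1 table with a whole-number read count per gene and library, without normalization, and a TPM, which is the count over gene length scaled to the whole library. In each library the deposited TPM times length over count was 1 constant. Per the labels' processing notes, HISAT2, TopHat2, Bowtie2 and HISAT and the build hg19 were used, with no role given. The counting program and strand setting are not given in the sources used here. The last line of the table is incomplete and was left out.

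Libraries were compared by the ratio of (TPM + 0.1) over all genes that reached a TPM of 1 in either, and members were then read out. Intervals at 95% are exact (Poisson for levels, Clopper-Pearson on the reads of both libraries for ratios). The limit for a count of 0 is 3 reads. No p-value was computed, since there was 1 library per condition. The genes named were all members, the genes of lists of receptors, modulators, ligands, transducers, targets and cell markers, and the 3 protein-coding genes nearest to each member, of which 1 is not reported here. The members and lists were chosen with earlier results of these data known. Gene IDs of all 8 members matched RefSeq (GRCh38.p14), whose promoter table had entries for BMP4, BMP5, BMP6, BMP8A, BMP8B and AMH and not for BMP2 and BMP7. Reference sequences are of another build than the gene coordinates. The ratio step and intervals were tested on simulated counts that held counting error only, with changes planted in genes of many reads. Variation between cultures and the recovery of changes in genes of few reads were outside that test. Tools were scipy 1.17.1, numpy 2.4.6, Biopython 1.88, matplotlib 3.10.9 and pandas 2.3.3 under Python 3.11.15.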

Additional observations from a re-analysis of the deposited data

Results flagged for a closer look

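BMP2 was past 1.5-fold higher with lasting resistance and past it lower with acute treatment. Its log2 ratio was 1.28 in A375R against A375P and -0.70 in A375+VEM against A375+DMSO, with both counting intervals on one side of no change. The difference between these comparisons was not tested, since each rests on 1 library per condition.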

How the results depend on the processing

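The settings varied were the pseudocount (1 or 0.01), the minimum TPM (none or 5), the scaling (median ratio of 1), the threshold (2-fold) and the control (the other library without vemurafenib). Summing BMP8A and BMP8B was added after seeing the data. The members past the threshold lower in A375R against A375P went from 2 to 1, AMH, at a TPM of at least 5 and at 2-fold. With A375+DMSO as the control the count was also 1, but that member was BMP7, and neither BMP8A nor AMH was past the threshold. Those lower in A375+VEM against A375+DMSO went from 4 to 2 at a TPM of at least 5, namely BMP2 and BMP8B. At 2-fold they went to another 2, BMP4 and BMP7. Without the filter 1 member, BMP5, was higher in that comparison instead of 0. The filter also held back BMP5, with 2 reads or none, from the members lower in A375R and in A375+DMSO against A375P (3 without it in each), and BMP7 from those higher in A375R (3 without it). In A375+DMSO against A375P the 1 member higher, BMP7, fell below a TPM of 5, which left 0. BMP7 in the acute comparison turned from a log2 ratio of -2.12 to 0.50 with A375P as the control. Of 79 log2 ratios of members under the alternatives, 74 kept their sign, and 5 did not, and of these BMP7 alone was past the threshold as first reported. Of 14 that left their counting interval, 9 did so with the other control. The median log2 ratio over all genes compared was 0.10 for the resistant strain, 0.11 for acute treatment and 0.09 for A375+DMSO against A375P. Scaling it away raised the members lower in A375+DMSO against A375P from 2 to 3, by BMP8A, and left the other counts of members as they were. The causes were not tested, except where fewer or more genes were admitted by construction. By correlation over the 4 libraries in place of distance, the nearest gene was also the best correlated one for BMP2 and BMP7, and another gene was so for the other 5 members compared. For BRIX1 and BMP4, 26 genes had a higher correlation. Depth limits BMP4, BMP5 and BMP7 most, with 0 to 85 reads per library. No replicate could be left out.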

Other observations

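A375R and A375+VEM are both labelled as treated with vemurafenib, continuously and for 48 h, and the labels set up no direct comparison of them. BMP2, BMP4, BMP6 and BMP8B were higher in A375R than in A375+VEM, at ratios of TPM of 8.83, 3.56, 1.95 and 1.84, with counting intervals from 7.67 to 10.2, 2.05 to 6.51, 1.58 to 2.41 and 1.63 to 2.09. AMH was lower in A375R, at 0.655 (95% interval 0.497 to 0.859). BMP7 and BMP8A were at 1.57 and 0.751, with intervals that include 1. Over all 1773 genes compared, 423 were past 1.5-fold higher and 546 lower in A375R. BMP5 had 0 reads in A375R and 9 in A375+VEM. In the same libraries BAMBI had 314 and 1358 reads and ATOH8 had 9 and 898.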
